A study of Mus musculus with 8 samples.

Results

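Emx1, Nr2f1, Nr2f2, Sp8, Lmo3, Lmo4 and Dmrta2 are transcriptional regulators of the embryonic cerebral cortex that take part in dividing it into areas. They were selected by gene symbol from the raw counts, and these 7 symbols were found among the 23284 listed and were all among the 14696 genes with enough reads to be tested. RNA was sequenced from the dorsal cortex of E15.5 mouse embryos of the C57BL/6 strain in 4 libraries labelled WT, here ErbB4+/+, and 4 labelled KO, here ErbB4-/-. ErbB4 is a receptor tyrosine kinase for neuregulins. The ErbB4-/- mice carry a germline loss of ErbB4 and survive because a transgene expresses ErbB4 in the heart under the α-MHC promoter, which the ErbB4+/+ embryos are not described as carrying. Both genotypes were bred as separate homozygous colonies, and all samples had the meninges and the ganglionic eminences dissected away. The labels give no litter or embryo for a library, so the p-values measure the spread between these libraries, which may be partly technical. The comparison asks whether the levels of the area patterning genes differ when ErbB4 is lost.

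During corticogenesis, signalling centres at the edges of the cortical primordium release fibroblast growth factors, WNTs and bone morphogenetic proteins, which set up graded expression of transcription factors across the sheet of progenitors. A factor that is high at one pole and low at the other biases the cells it is in towards the motor, somatosensory or visual fate, and loss of such a factor shifts area borders. Because the genes are graded in space, a dissected whole hemisphere gives the average over the gradient, and in such bulk tissue fewer cells that express a gene and less RNA per cell cannot be told apart.

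Depth was from 28205703 to 48871480 counts per library. Erbb4 itself was at 8.99, 19.9, 25.3 and 19.2 CPM (counts per 1000000 counts of the library, after normalization of library sizes) in ErbB4+/+ replicates 1 to 4 and at 20.9, 24.6, 20.7 and 23.5 CPM in ErbB4-/- replicates 1 to 4, so the level of this transcript did not separate the genotypes and the groups are those of the labels. Neurod6, a marker of cortical excitatory neurons, was detected in every library, at 854 to 1093 CPM in ErbB4+/+ and 839 to 1061 CPM in ErbB4-/-. ErbB4+/+ replicate 1 stood apart on the first principal component, and its deviations from the mean fell with transcript length, with a Spearman correlation across 14392 genes of -0.525 against 0.033 to 0.202 in the other libraries. Xist, the RNA of the inactive X chromosome, was at 983 to 1687 CPM in ErbB4+/+ replicates 1 to 3 and at 2.7 to 3.82 CPM in ErbB4+/+ replicate 4 and all ErbB4-/- libraries, so sex and genotype cannot be told apart except through ErbB4+/+ replicate 4.

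The transcript levels of the area patterning genes differed little between the genotypes. The fitted log2 fold changes of ErbB4-/- over ErbB4+/+ ran from -0.21 for Dmrta2 to 0.07 for Lmo3, with 4 genes lower, 3 higher and a median of -0.13, beside a median of -0.0022 over all genes. None of the 7 passed an adjusted p of 0.05 in edgeR's quasi-likelihood test, where 0.0272% of all genes passed. DESeq2 and limma-voom also called 0 of the 7. Exact two-sided permutation tests of log2 CPM, gene by gene, gave p from 0.143 for Nr2f1 and Lmo3 to 0.943 for Nr2f2. At an unadjusted p under 0.05 only Nr2f1 was counted, as lower. Its unadjusted p was under 0.05 in 6 of the 17 alternatives described below, and from 0.00881 to 0.147 over all of them. The background at that level was 5.53% of all genes, with 2.52% lower and 3.00% higher. No gene of the 7 had libraries of the genotypes that did not overlap, which 3.34% of all genes had.

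**Figure D1:**
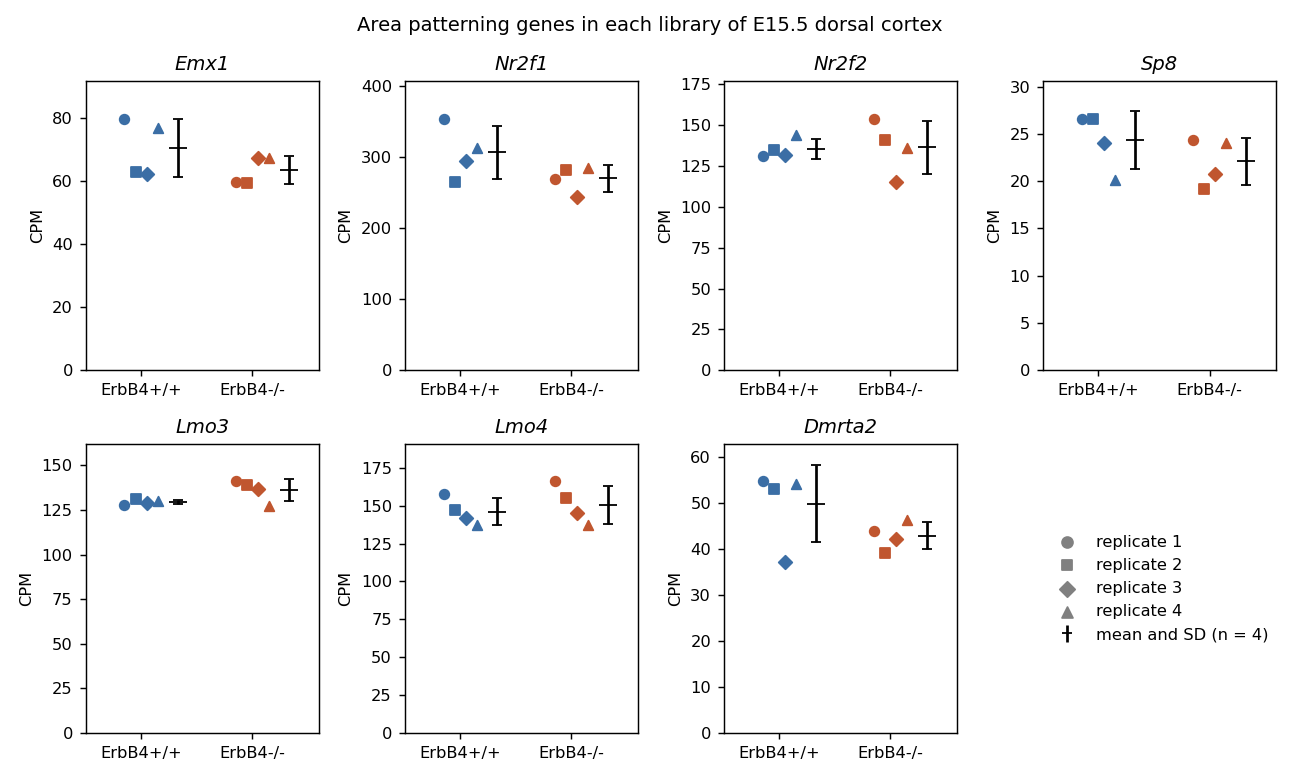
Level of each gene in every library, in CPM after TMM normalization, on axes that start at 0, with symbols for the replicate number and bars for the mean and SD of 4 libraries. The genotypes overlap in every panel. Dmrta2 of ErbB4+/+ replicate 3, at 37.2 CPM, lies below all other libraries, and Nr2f1 of ErbB4+/+ replicate 1, at 354 CPM, above them.

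Emx1 encodes a homeodomain factor that marks the dorsal telencephalon and is used as a marker of the excitatory cortical lineage. It lies on the plus strand of chromosome 6 at chr6:85137432-85154456 (NCBIM37, mm9). Its level was 79.9, 62.9, 62.2 and 77.1 CPM in ErbB4+/+ replicates 1 to 4 and 59.8, 59.6, 67.5 and 67.4 CPM in ErbB4-/- replicates 1 to 4. ErbB4+/+ replicates 1 and 4 were above all others, while the remaining ErbB4+/+ libraries fell inside the ErbB4-/- range. The means were 70.5 ± 9.26 CPM (SD, n = 4) and 63.6 ± 4.46 CPM (SD, n = 4). The log2 fold change was -0.15 with a standard error of 0.092 and an adjusted p of 0.81 in edgeR, with a 95% interval of the fold from 0.784 to 1.04. The value moved to -0.09 when ErbB4+/+ replicate 1, the library that stood apart, was left out, to -0.10 without ErbB4+/+ replicate 4, and to -0.30 with Xist as a covariate.

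Dmrta2, also called Dmrt5, encodes a doublesex-related zinc finger factor that is high in the caudomedial cortex and is needed for the cortical hem and for caudal area identity. It lies at chr4:109650658-109656292 on the plus strand. Its level was 54.6, 53, 37.2 and 54.1 CPM in the ErbB4+/+ libraries and 43.9, 39.1, 42.2 and 46.2 CPM in the ErbB4-/- libraries, in order of replicate. Apart from ErbB4+/+ replicate 3, which was the lowest of the 8, every ErbB4+/+ library was above every ErbB4-/- library. The means were 49.7 ± 8.37 CPM and 42.8 ± 3.01 CPM (SD, n = 4 each), and the log2 fold change of -0.21 (standard error 0.113) had an adjusted p of 0.81 in edgeR, with a 95% interval of the fold from 0.726 to 1.02. When ErbB4+/+ replicate 3 was left out, Dmrta2 had a log2 fold change of -0.33 with an unadjusted p of 0.000755 and an adjusted p of 0.733 in edgeR, so 1 library moved the value by over 1.5 times and the gene was still not called. The reads behind these values numbered from 1360 to 2162 per library.

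Nr2f1 and Nr2f2 encode the orphan nuclear receptors COUP-TFI and COUP-TFII. Nr2f1 is graded from high caudolateral to low rostromedial and is required for the somatosensory and other sensory areas, and Nr2f2 is highest in the caudal and temporal cortex and in interneurons from the caudal ganglionic eminence. Nr2f1 lies at chr13:78328234-78339018 and Nr2f2 at chr7:77496832-77511621, both on the minus strand. The proteins share 88.8% of 409 aligned residues. The longest run of identical coding sequence is 59 nucleotides, in the DNA-binding domain, and is longer than the reads of 50 nucleotides, so reads that fall wholly inside it come from either gene. It is shown with the matching window of the third family gene, Nr2f6, with bases identical to the run in Nr2f1 in capitals, 5′ to 3′ on the coding strand, each from 1 exon of NCBIM37.
Nr2f1, chr13:78337526-78337615, minus strand: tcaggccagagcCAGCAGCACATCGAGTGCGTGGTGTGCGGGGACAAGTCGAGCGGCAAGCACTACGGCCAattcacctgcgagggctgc
Nr2f2, chr7:77504919-77505008, minus strand: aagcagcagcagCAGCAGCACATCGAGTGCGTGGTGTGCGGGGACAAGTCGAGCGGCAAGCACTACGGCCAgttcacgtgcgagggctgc
Nr2f6, chr8:73904940-73905029, minus strand: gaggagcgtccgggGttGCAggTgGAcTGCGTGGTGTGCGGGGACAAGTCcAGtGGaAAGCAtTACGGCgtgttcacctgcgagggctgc
Nr2f6 holds 45 of the 59 bases of the run. Of all stretches of 50 nucleotides within the exons, 99.78% of 4458 in Nr2f1 and 98.89% of 4667 in Nr2f2 occur once in the genome. These are shares of exon positions. The share of reads that came from the other stretches was not measured.

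Nr2f1 was the gene of the 7 with the lowest unadjusted p, and it did not pass after adjustment. Its level was 354, 265, 295 and 313 CPM in ErbB4+/+ replicates 1 to 4 and 269, 282, 244 and 285 CPM in ErbB4-/- replicates 1 to 4. ErbB4+/+ replicates 1, 3 and 4 were above all ErbB4-/- libraries, and ErbB4+/+ replicate 2 was below 3 of them. The means were 307 ± 36.9 CPM and 270 ± 18.7 CPM (SD, n = 4 each). The log2 fold change was -0.19 (standard error 0.084), with an unadjusted p of 0.0486 and an adjusted p of 0.81 in edgeR, and the exact two-sided permutation test of log2 CPM gave p = 0.143, where the smallest p for 4 against 4 libraries is 0.0286. Nr2f1 had a log2 fold change of -0.11 when ErbB4+/+ replicate 1, the library that stood apart, was left out and of -0.25 when ErbB4+/+ replicate 2 was. The exons of Nr2f1 share 103 nucleotides with those of the antisense gene A830082K12Rik, whose level was 18.9 ± 1.4 CPM in ErbB4+/+ and 18.2 ± 1.07 CPM in ErbB4-/- (SD, n = 4 each). The libraries do not keep the strand, so reads from the shared stretch cannot be told apart.

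For Nr2f2 the means of the genotypes were nearly equal. Its level was 131, 135, 132 and 144 CPM in ErbB4+/+ and 154, 141, 115 and 136 CPM in ErbB4-/-, in order of replicate. The ErbB4-/- libraries held both the highest and the lowest value of the 8. Means of 135 ± 5.88 CPM and 137 ± 16.2 CPM (SD, n = 4 each) gave a log2 fold change of 0.01 (standard error 0.080, adjusted p = 0.979 in edgeR) and a 95% interval of the fold from 0.894 to 1.14. The log2 ratio of Nr2f1 to Nr2f2, a quantity chosen after the values were seen and so given with no test, was 0.97 to 1.44 in ErbB4+/+ and 0.80 to 1.08 in ErbB4-/-, and the ranges overlap. Nr2f6 was at 26.1 ± 3.59 CPM and 26.3 ± 1.45 CPM (SD, n = 4 each).

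Sp8 encodes a zinc finger factor of the buttonhead family that is induced by Fgf8, is high in rostromedial progenitors and counteracts the caudal factors. It lies at chr12:120084802-120091051 on the plus strand. Sp8 and its paralog Sp9 share 70.2% of 416 aligned residues. Their longest run of identical coding sequence, 44 nucleotides in the zinc finger region, is shown in capitals within its surroundings, because it is shorter than a read, so that a read over it also covers bases that are not in the run. Of all stretches of 50 nucleotides within the exons of Sp8, 98.15% of 4435 occur once in the genome, the lowest share of the 7 genes.
Sp8, chr12:120087960-120088033, plus strand: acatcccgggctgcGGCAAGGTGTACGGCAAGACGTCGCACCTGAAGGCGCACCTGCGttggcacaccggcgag
Sp9, chr2:73112164-73112237, plus strand: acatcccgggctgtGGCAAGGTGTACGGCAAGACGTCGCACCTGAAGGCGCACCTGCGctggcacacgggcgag
The level of Sp8 was 26.6, 26.6, 24 and 20.1 CPM in ErbB4+/+ and 24.4, 19.2, 20.8 and 24 CPM in ErbB4-/-, in order of replicate. Neither genotype was set apart, and the lowest ErbB4+/+ library lay among the lower ErbB4-/- libraries. The means were 24.3 ± 3.09 CPM and 22.1 ± 2.5 CPM (SD, n = 4 each), with a log2 fold change of -0.13 (standard error 0.109, adjusted p = 0.812 in edgeR) and a 95% interval of the fold from 0.772 to 1.07. The value moved to -0.22 without ErbB4+/+ replicate 4 and to -0.07 without ErbB4-/- replicate 2, and it reversed to 0.13 with Xist as a covariate. Sp9, which is expressed in the ganglionic eminences and their interneurons, was at 42.4 ± 6.96 CPM and 43.9 ± 6.17 CPM (SD, n = 4 each). The log2 ratio of Sp8 to Sp9, also chosen after the values were seen, was -0.86 to -0.71 in ErbB4+/+ and -1.19 to -0.79 in ErbB4-/-, so the ranges overlap, with 3 of the 4 ErbB4-/- libraries below all ErbB4+/+ libraries.

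Lmo3 and Lmo4 encode LIM-only proteins, which do not bind DNA themselves and act by bridging the LDB cofactors to other transcription factors. Lmo4 is enriched in frontal and occipital cortex and low in between, and it shapes the somatosensory map. Lmo3 lies at chr6:138311439-138530489 and Lmo4 at chr3:143851494-143868184, both on the minus strand. The level of Lmo3 was 128, 131, 129 and 130 CPM in ErbB4+/+ and 141, 139, 137 and 127 CPM in ErbB4-/-, in order of replicate. ErbB4-/- replicates 1 to 3 were above every ErbB4+/+ library, and ErbB4-/- replicate 4 was below all of them. The means were 129 ± 1.42 CPM and 136 ± 6.01 CPM (SD, n = 4 each), and the log2 fold change of 0.07 (standard error 0.050) had an adjusted p of 0.81 in edgeR, with a 95% interval of the fold from 0.974 to 1.13. Lmo3 had the narrowest interval of the 7 genes. An intron of Lmo3 holds A830011K09Rik on the other strand, with no shared exon sequence.

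Lmo4 was at 158, 147, 142 and 137 CPM in ErbB4+/+ and at 166, 155, 145 and 137 CPM in ErbB4-/-, in order of replicate. The genotypes covered nearly the same range. Means of 146 ± 8.89 CPM and 151 ± 12.3 CPM (SD, n = 4 each) gave a log2 fold change of 0.05 (standard error 0.068, adjusted p = 0.88 in edgeR) and a 95% interval of the fold from 0.931 to 1.14. The value moved to 0.09 without ErbB4+/+ replicate 1 and to 0.02 without ErbB4+/+ replicate 4. It turned to -0.0041 without ErbB4-/- replicate 1, and it was 0.12 with Xist as a covariate. Of their partners and relatives, Ldb1 was at 317 ± 22.9 CPM and 297 ± 5.77 CPM, Ldb2 at 63.8 ± 4.79 CPM and 72.4 ± 8.21 CPM, Lmo1 at 54.9 ± 10.9 CPM and 52.7 ± 2.72 CPM, and Lmo2 at 16.3 ± 1.92 CPM and 16.6 ± 0.929 CPM (ErbB4+/+ first, SD, n = 4 each), with no call in edgeR. Lmo3 is closer in protein sequence to Lmo1, at 85.3% of 156 aligned residues, than to Lmo4, at 45.8% of 155.

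**Figure D2:**
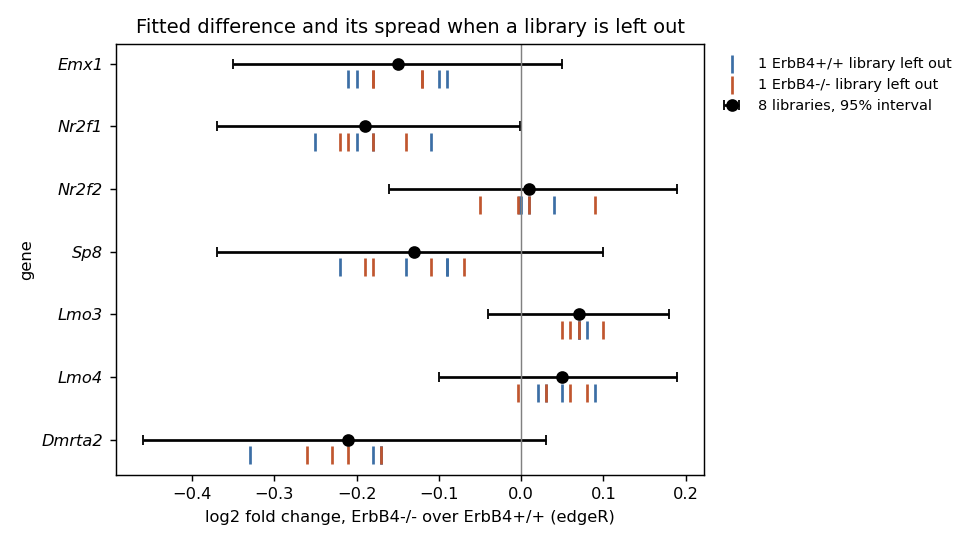
Log2 fold change of ErbB4-/- over ErbB4+/+ in edgeR for each gene (point) with its 95% interval, and the values with 1 library left out at a time (ticks, coloured by the genotype of the library left out). All intervals but that of Nr2f1, which runs from -0.37 to -0.0014, include 0, and the tick farthest from 0 is Dmrta2 without ErbB4+/+ replicate 3, at -0.33.

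The spread of the genes within a genotype rested in part on single libraries. The coefficient of variation among ErbB4+/+ libraries ran from 1.1% for Lmo3 and 4.34% for Nr2f2 to 16.8% for Dmrta2, beside a median of 8.78% over 10140 genes with a mean of at least 10 CPM. Among ErbB4-/- libraries it ran from 4.42% for Lmo3 to 11.9% for Nr2f2, beside a median of 4.8%. Lmo3 was below both medians, and Emx1, Nr2f1, Sp8 and Dmrta2 were above both. Emx1, Nr2f1, Sp8 and Dmrta2 varied more among ErbB4+/+ than among ErbB4-/- libraries, as did the median gene, and Nr2f2, Lmo3 and Lmo4 the other way round. With 1 library left out, the coefficient of variation of Dmrta2 in ErbB4+/+ was 1.58% without replicate 3, that of Sp8 5.91% and that of Nr2f2 1.77% without replicate 4, and that of Lmo4 3.52% without replicate 1. In ErbB4-/- that of Lmo3 was 1.23% without replicate 4, and those of Nr2f1 and Nr2f2 were 2.97% and 6.65% without replicate 3, while that of Dmrta2 was 4.57% without replicate 2. The order of the genes by spread is therefore not fixed by 4 libraries, and these differences were not tested.

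With its level divided by exon length, Nr2f1 was the most abundant of the genes. On the scale of CPM per kilobase of exon (RPKM), which allows levels of different genes to be compared, with exon lengths from the GENCODE annotation of NCBIM37 rather than the authors' own, Nr2f1 was at 51.3 to 74.4 over the 8 libraries and Lmo4 followed at 41.6 to 50.3. Emx1 at 27.3 to 36.6, Nr2f2 at 23.7 to 31.7 and Lmo3 at 25.2 to 27.9 had overlapping ranges, and their order is not fixed by these data. Dmrta2 was lower at 12.7 to 18.7, and Sp8 was the lowest at 4.16 to 5.75. Except within the trio of Emx1, Nr2f2 and Lmo3, each gene was above the next in 8 of 8 libraries. The order of the genotype means was the same at both ends of the scale, with Nr2f1 at 64.6 and 56.8 and Sp8 at 5.25 and 4.77 RPKM in ErbB4+/+ and ErbB4-/-.

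**Figure D3:**
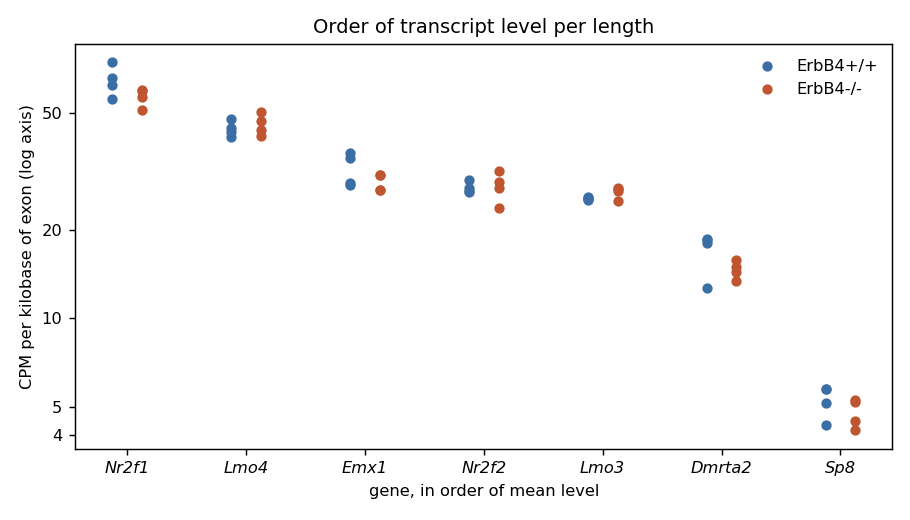
CPM per kilobase of exon of each gene in every library, on a log axis, in order of the mean over the 8 libraries, with the genotypes side by side. Nr2f1 is the highest and Sp8 the lowest in every library, and the ranges of Emx1, Nr2f2 and Lmo3 overlap.

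Across the 8 libraries the genes did not move as 1 block. Of the 21 pairs, 0 had a Pearson correlation of log2 CPM that passed the exact permutation test unadjusted, and the lowest adjusted p over the pairs was 0.493. The highest correlation was between Emx1 and Dmrta2, with Pearson's r of 0.72 (exact permutation p = 0.0512, adjusted p = 0.493) and Spearman's rho of 0.74 (exact permutation p = 0.0458, adjusted p = 0.687), and r was 0.63 with the genotype means removed. Without ErbB4+/+ replicates 1 and 4, the libraries farthest from the median of Emx1, r was 0.27, and without ErbB4+/+ replicate 1 alone it was 0.61. Emx1 and Nr2f1 had r = 0.68 (exact permutation p = 0.061, adjusted p = 0.493; rho = 0.43, exact permutation p = 0.299, adjusted p = 0.687), which turned to -0.37 without the same libraries. The lowest was that of Nr2f1 and Lmo3, with r = -0.62 (exact permutation p = 0.105, adjusted p = 0.493) and rho = -0.64 (exact permutation p = 0.0962, adjusted p = 0.687), and -0.48 without ErbB4+/+ replicate 1 and ErbB4-/- replicate 3. The paralogs Nr2f1 and Nr2f2 had r = 0.22 (exact permutation p = 0.609, adjusted p = 0.838) and rho = 0.07 (exact permutation p = 0.882, adjusted p = 0.982), and r was -0.16 without the same libraries as for Nr2f1 and Lmo3.

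**Figure D4:**
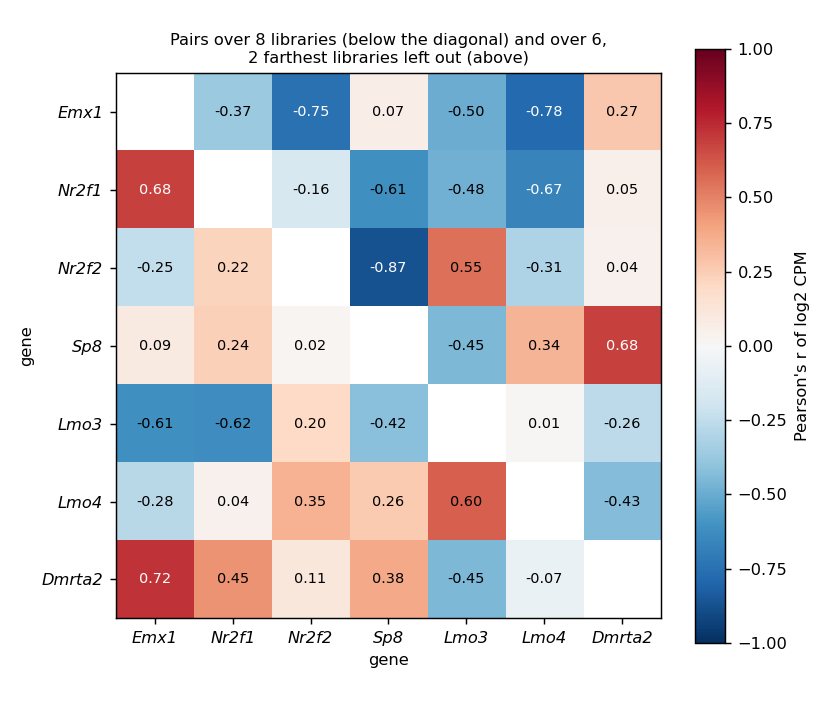
Pearson's r of log2 CPM for each pair of genes, over 8 libraries below the diagonal and over 6 above it, where the 2 libraries farthest from the median of the first gene of the pair are left out. The values change between the triangles, from 0.68 to -0.37 for Emx1 and Nr2f1 and from 0.60 to 0.01 for Lmo3 and Lmo4.

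Among 10139 other genes with a mean of at least 10 CPM, the genes most like each member over the 8 libraries were Hdac5 (Pearson's r 0.971) and Cotl1 (0.970) for Emx1, Cdkn2aipnl (0.982) and Srp68 (0.981) for Nr2f1, and Vps33b (0.952) and Plekhg5 (0.917) for Nr2f2. For Sp8 they were 2610034B18Rik (0.958) and Ccdc75 (0.946), for Lmo3 Kcna6 (0.968) and Akap7 (0.963), for Lmo4 Mlc1 (0.975) and Vit (0.958), and for Dmrta2 Rhbdd3 (0.996) and 1600027N09Rik (0.954). No gene was named for more than 1 member, and no member was among the closest genes of another. These are descriptions: with 8 libraries and so many genes searched, the highest r is high for any gene.

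The wider patterning network was described by lists of other genes with known roles. Of 53 listed genes, 51 were tested, 29 were higher and 22 lower in ErbB4-/-, with 0 called in edgeR and limma-voom (0.0272% of all genes in each) and 1 in DESeq2 (Crym), where 0.138% of genes were called. At an unadjusted p under 0.05, 7 of the 51 were higher and 2 lower, beside 3.00% and 2.52% of all genes. Among the 51, 2 had genotypes that did not overlap, Dusp6 and Nkd1, a share near the 3.34% of all genes. The transcription factors that act with the members were mostly lower, 7 of 8, with a median log2 fold change of -0.08. Their median was -0.04, with 6 of 8 lower, without ErbB4+/+ replicate 4, and -0.16 with Xist as a covariate. Pax6, the rostrolateral progenitor factor that opposes Emx2, was at 77.2 to 95.5 CPM in ErbB4-/- and 92.5 to 112 CPM in ErbB4+/+ (log2 fold change -0.27, unadjusted p = 0.00626, adjusted p = 0.81 in edgeR), and Bhlhe22, a factor of somatosensory area identity also called Bhlhb5, was the 1 that was higher (0.24, unadjusted p = 0.0102, adjusted p = 0.81 in edgeR). Emx2, the caudomedial paralog of Emx1, was at 60.3 ± 2.75 CPM and 55.3 ± 3.69 CPM (SD, n = 4 each), a log2 fold change of -0.12. Of the relatives of Dmrta2, Dmrt3 was at 12.1 ± 2.29 CPM and 10.5 ± 1.36 CPM and Dmrta1 at 6.35 ± 0.598 CPM and 4.55 ± 1.39 CPM (SD, n = 4 each, ErbB4+/+ first). Dmrta1 had a log2 fold change of -0.49 with an unadjusted p of 0.0254 and an adjusted p of 0.81 in edgeR.

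Ligands of the patterning centres act upstream of the members. Of 12 tested ligands 4 were higher and 8 lower, with a median of -0.04. The tally turned to 8 higher and 4 lower (median 0.11) without ErbB4+/+ replicate 2, and to 7 higher and 5 lower without ErbB4+/+ replicate 3 (median 0.09) or without ErbB4-/- replicate 2 (median 0.12). Fgf8, the anterior signal that induces Sp8, was too low to test, with 0 counts in each ErbB4+/+ library and 2, 1, 11 and 1 counts in ErbB4-/- replicates 1 to 4. Fgf17 was at 0.0357 to 0.365 CPM in ErbB4+/+ and 0.287 to 2.56 CPM in ErbB4-/-, and Bmp7 at 3.3 to 4.46 CPM and 3.85 to 8.73 CPM. The highest library of Fgf8, Fgf17 and Bmp7 was ErbB4-/- replicate 3, which also held the choroid plexus transcript Ttr at 572 CPM against 0.571 to 8.76 CPM elsewhere, and the part of such tissue in these values was not tested. Fgf18 had a log2 fold change of -0.40 (unadjusted p = 0.0216, adjusted p = 0.81 in edgeR). Of 12 receptors and targets of FGF signalling 9 were higher and 3 lower, with a median of 0.06, but without ErbB4-/- replicate 3 the tally was 5 higher and 7 lower, with a median of -0.01. Dusp6, a phosphatase induced by FGF signalling, was at 28 to 31.7 CPM in ErbB4+/+ and 32.4 to 35.9 CPM in ErbB4-/- (log2 fold change 0.19, unadjusted p = 0.017, adjusted p = 0.81 in edgeR). Of 7 tested targets of WNT and BMP signalling, 3 were higher and 4 lower, which turned to 4 higher and 3 lower without ErbB4+/+ replicate 1, 3 or 4, without ErbB4-/- replicate 2, with Xist as a covariate or with the length trend removed.

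Regional markers of the cortical plate, the readout of patterning in young neurons, had positive log2 fold changes. All 12 were higher in ErbB4-/- and the median of their log2 fold changes was 0.14, where 49.2% of all genes were higher. None was called in edgeR or limma-voom, and DESeq2 called 1, Crym, beside 0.138% of the 16655 genes to which it gave an adjusted p. Their summed level was 721 to 750 CPM in ErbB4+/+ and 776 to 873 CPM in ErbB4-/-. The 12 stayed higher with any 1 library left out, and 11 of them did with Xist as a covariate. Progenitor markers, described below, went mostly the other way, with 10 of 12 lower and a median of -0.17. Of 12 projection neuron markers, 7 were higher and 5 lower, with a median of 0.02. The part of a shift between progenitors and neurons in the regional markers was not tested. Crym, a thyroid hormone-binding protein, was at 21.4, 21.9, 20.5 and 26 CPM in ErbB4+/+ and 39.4, 34, 35.9 and 25.7 CPM in ErbB4-/-, in order of replicate (log2 fold change 0.59, unadjusted p = 0.000519, adjusted p = 0.533 in edgeR). The authors counted Crym among the differentially expressed genes of these libraries, so its place among the 12 is not independent of them. They also reported altered Crym expression in ErbB4-/- cortex by qRT-PCR. ErbB4-/- replicate 4 lay within the ErbB4+/+ range for Crym. It was the lowest of the 8 libraries for Rorb, a nuclear receptor of layer 4 neurons in sensory areas, at 19.1 CPM beside 28.7 to 31.4 CPM in the other ErbB4-/- libraries and 20.3 to 25.1 CPM in ErbB4+/+. Cyp26b1, which degrades retinoic acid, was at 18.6 to 22.6 CPM in ErbB4+/+ and 22.5 to 28 CPM in ErbB4-/- (log2 fold change 0.26, unadjusted p = 0.0116, adjusted p = 0.81 in edgeR).

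**Figure D5:**
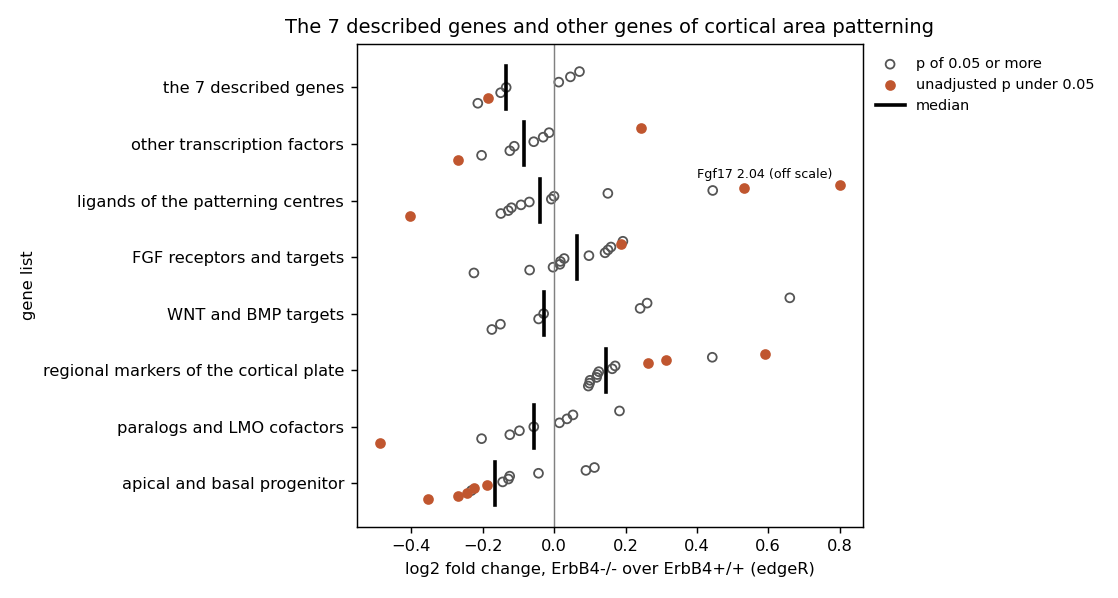
Log2 fold change of ErbB4-/- over ErbB4+/+ in edgeR for every tested gene of each list, with filled points for an unadjusted p under 0.05 and a line at the median of the list. The described genes and the other transcription factors lie mostly below 0, with medians of -0.13 and -0.08, and the 12 regional markers of the cortical plate all lie above it. Fgf17, at 2.04, is drawn at the edge of the axis.

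Several of the genes are expressed by particular cell types, and markers of those types were measured beside them. Emx1, Sp8, Dmrta2 and Nr2f1 are expressed in cortical progenitors. Of 12 progenitor markers 10 were lower in ErbB4-/- and 2 higher, with a median of -0.17, and their summed level was 2542 to 3234 CPM in ErbB4+/+ and 2488 to 2785 CPM in ErbB4-/-. The highest sum was that of ErbB4+/+ replicate 1, the library that stood apart, and the other ErbB4+/+ libraries summed to 2542, 2802 and 2833 CPM. When ErbB4+/+ replicate 1 was left out, 9 of 12 were lower and the median came to -0.12. The 5 markers Neurog2 (log2 fold change -0.35), Pax6 (-0.27), Hes1 (-0.24), Nes (-0.23) and Vim (-0.19) had an unadjusted p under 0.05 and were lower, beside 2.52% of all genes, and none was called in edgeR. The lists share genes: Pax6 is also among the transcription factors that act with the members. Tbr1 is among those factors and among the projection neuron markers. Of 12 markers of projection neurons 7 were higher and 5 lower, with a median of 0.02 and a summed level of 3439 to 3827 CPM and 3419 to 3814 CPM, and 4 were higher and 8 lower without ErbB4+/+ replicate 3 or with Xist as a covariate. The part of a shift between progenitors and neurons in the values of the members was not tested.

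Sp8, Nr2f1, Nr2f2, Lmo3 and Lmo4 are also expressed in ventral telencephalic cells. Of 20 markers of the ganglionic eminence and its interneurons 8 were higher and 12 lower, with a median of -0.02, and their summed level was 871 to 1121 CPM in ErbB4+/+ and 846 to 1109 CPM in ErbB4-/-. This tally moved both ways with single libraries. There were 4 higher and 16 lower without ErbB4+/+ replicate 4 (median -0.09) or without ErbB4-/- replicate 1 (median -0.07), 14 were higher and 6 lower without ErbB4+/+ replicate 2, without ErbB4+/+ replicate 3 or without ErbB4-/- replicate 3, and 17 were higher and 3 lower with Xist as a covariate, with a median of 0.23. Sst, an interneuron peptide, was at 82.6 to 120 CPM in ErbB4+/+ and 84 to 93.4 CPM in ErbB4-/- (log2 fold change -0.23, unadjusted p = 0.033, adjusted p = 0.81 in edgeR). Nkx2-1, which migrating cortical interneurons switch off and cells of the medial ganglionic eminence keep, was at 7.63 to 24.6 CPM in ErbB4+/+ and 9.37 to 27 CPM in ErbB4-/-. Markers of the cortical hem, choroid plexus and Cajal-Retzius cells summed to 261 to 366 CPM in ErbB4+/+ and to 338 to 373 CPM in ErbB4-/- replicates 1, 2 and 4 but to 920 CPM in ErbB4-/- replicate 3, where Ttr was highest and the choroid plexus folate receptor Folr1 was at 9.09 CPM against 0.107 to 0.706 CPM in the other libraries. Of 7 markers of the hippocampus and medial pallium 4 were higher and 3 lower, and 3 were higher and 4 lower without ErbB4+/+ replicate 1 or with Xist as a covariate. Of 13 markers of meninges, vessels and blood 10 were tested, with a summed level of 139 to 170 CPM and 139 to 145 CPM. Of these 10, 6 were higher and 4 lower, with a median of 0.04. The tally was 5 higher and 5 lower without ErbB4+/+ replicate 2 or 4, or without ErbB4-/- replicate 1 or 2. Alas2, a blood marker of the list, was at 11 to 13.3 CPM in ErbB4+/+ and 11.1 to 16.9 CPM in ErbB4-/- (log2 fold change 0.21). The sums include Hbb-y, which went the other way. Hbb-y, an embryonic globin of red blood cells, was at 34.6, 31.6, 26.3 and 13.9 CPM in ErbB4+/+ and at 3.69, 4.05, 6.74 and 18.3 CPM in ErbB4-/-, in order of replicate (log2 fold change -1.72, unadjusted p = 0.00271, adjusted p = 0.81 in edgeR). The part of these cell types in the values of the members was not tested.

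ErbB4+/+ replicate 4 is the ErbB4+/+ library with a low Xist level, like all ErbB4-/- libraries. For Emx1, Nr2f1 and Dmrta2 it was above all 4 ErbB4-/- libraries, at 77.1, 313 and 54.1 CPM. For Nr2f2, Sp8 and Lmo3 it lay within their range, and for Lmo4 it was just below the lowest of them. With the log2 CPM of Xist as a covariate in edgeR, the log2 fold changes were -0.36 for Dmrta2, -0.30 for Emx1, -0.23 for Nr2f1, 0.07 for Lmo3 and 0.12 for Lmo4, in the same direction as without it. Those of Sp8, at 0.13, and Nr2f2, at -0.07, turned the other way. None of the 7 had an unadjusted p under 0.05 in that fit.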

How the data were processed

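The authors made unstranded libraries from polyA RNA and sequenced single-end reads of 50 nucleotides. Per the labels and the study's methods, HISAT mapped the reads to mm9 and HTSeq counted them. The versions, the gene annotation and the counting mode are not given in the sources used here. The deposited files hold raw counts per gene symbol, with no normalization. The deposited DESeq2 table holds the authors' fold changes and p-values and was not used.

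Groups came from the sample labels. Genes were tested in edgeR 4.0.16 in R 4.3.3 with its quasi-likelihood F test, TMM normalization and the filterByExpr defaults (minimum count 10, minimum total 15) over all 8 libraries with genotype as the only term, and p-values were adjusted by Benjamini-Hochberg over the 14696 genes kept, with a threshold of 0.05. The TMM factors were 0.994 to 1.01 and the common biological coefficient of variation was 10.7%. CPM are TMM-normalized, and log2 CPM have a prior count of 2. Single values and correlations were tested with exact permutation tests, two-sided. Precision follows from depth and the spread over 4 libraries, and counting error is part of the fitted model. Positions, exon lengths and sequences came from the GENCODE annotation and genome of NCBIM37, matched by symbol. The proteins were translated from that annotation for the identities given.

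The members and lists were chosen with earlier results of these data known. The rule for named genes was the 7 members, the paralogs and LMO cofactors, Erbb4, at most 5 genes of each other list with an unadjusted p under 0.05, largest change first, and the 2 genes most correlated with each member. Neurod6, Xist, A830082K12Rik, A830011K09Rik, Fgf8, Nkx2-1, Nkd1, Alas2 and the log2 ratios were named after their values were seen where they fall outside it. Alternatives were DESeq2 1.42.0, limma-voom (limma 3.58.1), normalization by upper quartile or by relative log expression, the low-count filter dropped or raised to a mean of 50 counts, a covariate for Xist, a block for the replicate number, and each library left out. Removal of each library's trend with exon length was added after seeing the data. The steps were tested on simulated data. Figures were drawn with matplotlib 3.10.9.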

Additional observations from a re-analysis of the deposited data

Results flagged for a closer look

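Dmrta2 was at 37.2 CPM in ErbB4+/+ replicate 3 against 53 to 54.6 CPM in the other ErbB4+/+ libraries, a gap that on the log2 CPM scale was 0.919 of the range of the group. Dmrta1, its paralog, was at 5.45 CPM in ErbB4+/+ replicate 2 against 6.59 to 6.71 CPM in the others, a gap of 0.919 of the range on the same log2 scale. Both gaps exceed Dixon's 95% critical value for 4 samples. In all, 52 groups of 26 genes were examined and 2 held a library that far from the rest, where chance gives about 5%, and the libraries of the pair are different ones.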

How the results depend on the processing

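None of the 7 members was called under any of the 17 alternatives. At an unadjusted p under 0.05, 0 to 2 were counted, with 2 (Emx1 and Dmrta2) without ErbB4+/+ replicate 3. The direction was kept in 112 of 119 values. It turned for Nr2f2 with Xist as a covariate (-0.07), with the length trend removed (-0.0035), without ErbB4+/+ replicate 1 (-0.0029), without ErbB4-/- replicate 1 (-0.05) and without ErbB4-/- replicate 2 (-0.0037), for Sp8 with Xist as a covariate (0.13), and for Lmo4 without ErbB4-/- replicate 1 (-0.0041). The cause was not tested. With 1 library left out, log2 fold changes ran from -0.21 to -0.09 for Emx1, -0.25 to -0.11 for Nr2f1, -0.05 to 0.09 for Nr2f2, -0.22 to -0.07 for Sp8, 0.05 to 0.10 for Lmo3, -0.0041 to 0.09 for Lmo4 and -0.33 to -0.17 for Dmrta2. Adjusted p-values of the members in edgeR and the other tools were 0.525 or more.

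Over all genes edgeR called 4, DESeq2 23, and relative log expression, upper-quartile normalization and Xist as a covariate 1 each, and 1 to 13 with a library left out, with 13 without ErbB4+/+ replicate 4 and 6 without ErbB4+/+ replicate 1. Deviations of same-numbered libraries correlated weakly, at 0.084, 0.135, 0.048 and 0.024 for replicates 1 to 4. Differently numbered libraries of the 2 genotypes correlated at -0.187 to 0.154. For ErbB4-/- replicates 1, 2 and 3 the same-numbered ErbB4+/+ library was the closest, while ErbB4-/- replicate 4 was closest to ErbB4+/+ replicate 3 (0.154). Whether the replicate numbers pair the libraries was not tested. With the replicate block 1 gene was called after adjustment, and it was not a member. At an unadjusted p under 0.05 in that fit, 1025 genes were counted, 1 of them a member. In the fit without the block, 812 genes were counted, 1 of them a member. Libraries of 4 per genotype limit what can be seen: the 95% intervals of the members' folds together spanned 0.726 to 1.14.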
